A study of Mus musculus with 8 samples.

Results

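The genes described are a family of 10, secreted regulators of blood vessel growth and the receptor of apelin: Apln, Aplnr, Vegfa, Vegfb, Vegfc, Pgf, Angpt1, Angpt2, Angptl4 and Adm. They were taken by gene symbol from 2 tables of mouse RNA sequencing in which 19382 genes are listed in all, 18645 in the table of activated hepatic stellate cells (HSCs) and 17408 in that of bone marrow-derived macrophages (BMDM). All 10 are listed in both tables. The family was chosen by the higher FPKM values of Apln with auranofin in the HSC table, so the HSC values of its members are a description and carry no test. The BMDM comparison had no part in the choice, and members were tested there.

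Auranofin is a gold compound that blocks thioredoxin reductase. The cells came from C57BL/6 mice, and a stranded mRNA kit was used for the 2 libraries of each of the 4 groups. The first pair of groups were HSCs grown from liver, the cells that lay down collagen once activated, exposed for 12 h to vehicle (labelled untreated) or to 0.03 µM auranofin. The second pair were BMDM given 100 ng/mL LPS and 1 mM ATP, a treatment that sets off the inflammasome, alone or with auranofin for 1 h at a dose labelled 0.1 µM. LPS and ATP were thus in all 4 BMDM libraries. The sources do not say whether replicates came from separate mice or cultures, and p-values then measure only the spread between these libraries, which may be technical.

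Apelin, the peptide encoded by Apln, acts through the G protein-coupled receptor APJ (Aplnr) and favours the sprouting of endothelial cells. The VEGF ligands bind receptor tyrosine kinases on the same cells: VEGF-A acts mainly through Kdr, VEGF-B and placental growth factor (Pgf) through Flt1, and VEGF-C and VEGF-D through Flt4, with the neuropilins Nrp1 and Nrp2 as co-receptors. The angiopoietins act on Tek, adrenomedullin (Adm) on Calcrl paired with a Ramp protein, and Angptl4 inhibits lipoprotein lipase as well as acting on vessels. Several of these genes, among them Vegfa, Adm and Angptl4, are textbook targets of hypoxia-inducible factor (HIF).

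The HSC libraries held transcripts of other cell types beside those of stellate cells. The 12 stellate or myofibroblast markers summed to between 3516 and 4079 FPKM per library, where FPKM is the fragment number of a gene divided by transcript length and library size. The 12 macrophage markers summed to between 8754 and 8844 FPKM, and the 13 endothelial markers, which include Kdr, Tek and Tie1, to between 351 and 387 FPKM. In such bulk samples, fewer cells of a type and less RNA per cell cannot be told apart. In BMDM the macrophage markers summed to between 6929 and 7822 FPKM. Apart from Kdr, no endothelial marker there reached 0.7 FPKM, and Emcn was listed at 0 in all 4 libraries. The estimated depth lay between 27600000 and 39300000 fragments per library.

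One BMDM library stood apart. Of the 4245 genes that averaged 10 FPKM or more, auranofin replicate 1 differed by 2-fold or more from auranofin replicate 2 in 383 genes and from the vehicle libraries in 368 and 377. Auranofin replicate 2 differed from the vehicle libraries in 15 and 12 genes, and the vehicle libraries from each other in 14. In the HSC table every pair of libraries differed in 13 to 35 of 6430 genes. BMDM values of the members are therefore given by library, and the differences of the 5 members tested also without auranofin replicate 1.

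The 250 bases upstream of the start of Apln, Vegfa and Adm are shown because the results by library turn on these members. They were copied from RefSeq windows on GRCm38.p6, the assembly that the deposited tables call mm10, and are printed 5′ to 3′ on the strand of the gene. Windows were found for 6 of the 10 members. Each was searched on both strands for the core of the HIF element, ACGTG or GCGTG, and for the core of the antioxidant response element bound by NRF2, TGACNNNGC. Capitals mark matches. Apln is at chrX:48034854-48035103 on the minus strand, Vegfa at chr17:46032378-46032627 on the minus strand, and Adm at chr7:110627407-110627656 on the plus strand. The genes themselves span chrX:48025146-48034853, chr17:46016993-46032377 and chr7:110627657-110629820.

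Apln: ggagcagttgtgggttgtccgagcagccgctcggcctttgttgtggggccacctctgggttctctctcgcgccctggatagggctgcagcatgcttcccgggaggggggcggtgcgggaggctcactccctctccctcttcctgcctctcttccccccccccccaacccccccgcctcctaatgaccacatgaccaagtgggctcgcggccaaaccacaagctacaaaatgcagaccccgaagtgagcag

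Vegfa: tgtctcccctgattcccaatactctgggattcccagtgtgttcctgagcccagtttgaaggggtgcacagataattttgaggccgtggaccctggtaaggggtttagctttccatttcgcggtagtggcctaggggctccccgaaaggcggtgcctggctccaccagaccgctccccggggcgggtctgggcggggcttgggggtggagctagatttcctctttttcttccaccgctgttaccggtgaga

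Adm: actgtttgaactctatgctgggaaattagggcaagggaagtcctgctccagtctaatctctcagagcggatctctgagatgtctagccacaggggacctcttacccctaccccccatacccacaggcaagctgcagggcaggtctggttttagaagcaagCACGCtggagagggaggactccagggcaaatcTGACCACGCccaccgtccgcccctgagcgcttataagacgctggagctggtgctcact

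The Adm window held the HIF core on its opposite strand at bases 90 to 86 and 54 to 50 before the start. The second of these lay inside its only match to the antioxidant element, at bases 58 to 50. The Apln window and this Vegfa window had no match to either set of letters. A second annotated start of Vegfa, downstream of the first, had 2 HIF cores and no antioxidant element in its window. That window, chr17:46025164-46025413, lies inside the span of the gene and not upstream of it. Among the other members, Vegfb had 2 HIF cores, Pgf a match to each set in 1 of 2 windows, and Vegfc an antioxidant element alone. Of all 32851 windows of 250 bases, 38.6% held a HIF core and 10.2% an antioxidant element core, so such letters are common by themselves.

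The order of the members in vehicle HSCs, compared per length as FPKM, ran from Adm down to the apelin receptor. Adm was highest at 36.98 ± 0.967 FPKM (SD, n = 2), followed by Vegfb at 32.7 ± 1.07, Angpt2 at 22.4 ± 1.72 and Vegfa at 16.9 ± 0.879. Angptl4 (11.8 ± 1.64) and Vegfc (10.9 ± 0.0146) came next, and their vehicle libraries overlapped. Apln stood at 6.32 ± 1.28 FPKM and Pgf at 3.87 ± 0.331. Angpt1, the agonist of Tek, and Aplnr were at 0.117 ± 0.0609 and 0.0172 ± 0.0117 FPKM. No other pair of neighbours in this order overlapped.

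In vehicle BMDM every member but Angpt1 and Aplnr had a lower FPKM than in vehicle HSCs, and the order differed. The tables were normalized separately, so levels are set side by side without a test. Vegfb led at 5.78 ± 0.645 FPKM (SD, n = 2), ahead of Vegfa at 1.92 ± 0.0399. Adm (1.43 ± 0.141) and Angpt1 (1.38 ± 0.0836) overlapped, and Pgf followed at 1.19 ± 0.0775. The other 5 members were under 0.25 FPKM in both vehicle libraries: Vegfc, Angptl4, Angpt2, Aplnr and Apln, in that order, with Angpt2 overlapping its neighbour on either side.

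**Figure D1:**
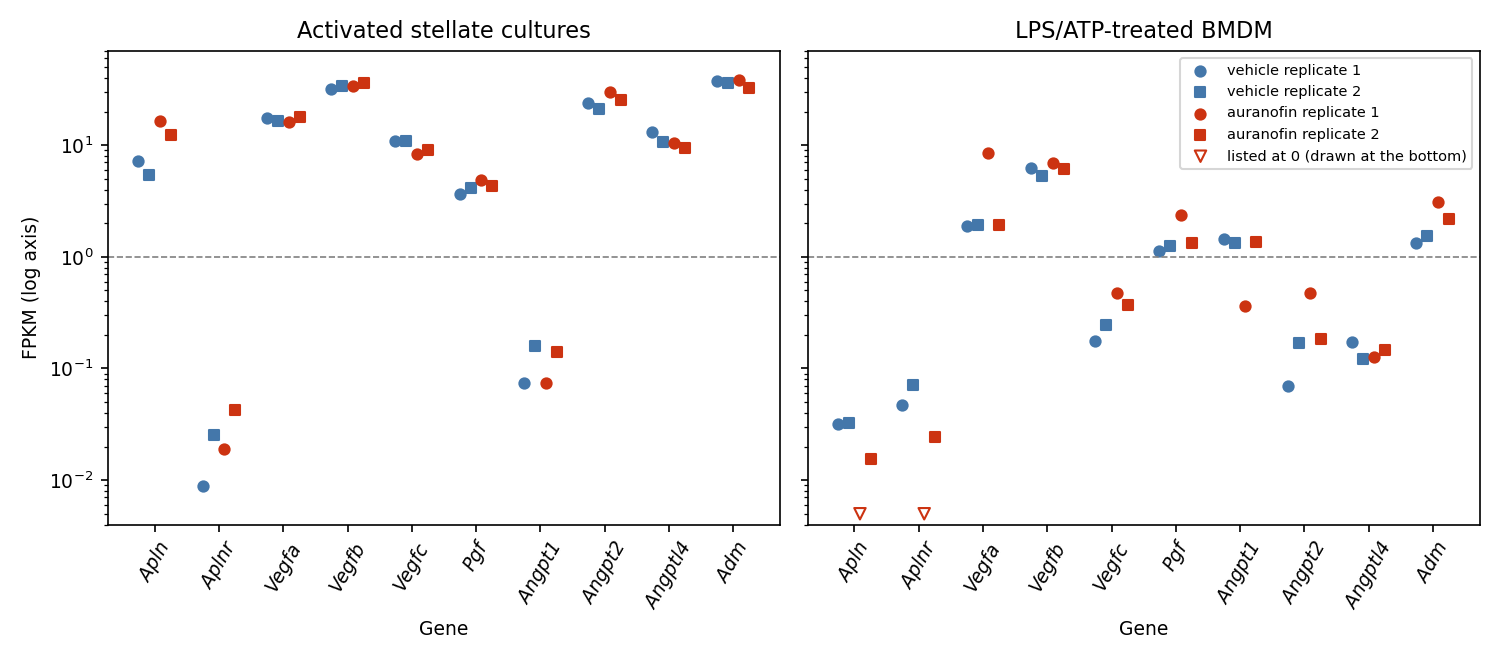
FPKM of the 10 angiogenic factors in each library of the HSC table (left) and the BMDM table (right), on a log axis. The dashed line marks 1 FPKM, open triangles mark values listed at 0, and Apln reaches 16.6 and 12.3 FPKM with auranofin in HSCs but stays under 0.04 FPKM in BMDM.

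Apelin was the member that differed most in HSCs. Apln measured 7.22 and 5.42 FPKM under vehicle, against 16.6 and 12.3 FPKM under auranofin. Both auranofin libraries lay above both vehicle libraries, with the lower auranofin value above the higher vehicle value. The ratio of the means was 2.28, and the log2 fold change 1.07 (SE 0.165). All log2 fold changes here are differences of log2(FPKM + 1), a scale on which the change of a weakly expressed gene comes out too small. The estimated fragments behind these values were 715 and 564 with vehicle and 1560 and 1520 with auranofin. Leaving out 1 library at a time gave between 0.87 and 1.28 on the log2 scale.

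The apelin receptor was near the limit of detection. Aplnr measured 0.00892 and 0.0255 FPKM in vehicle HSCs and 0.0188 and 0.0427 FPKM with auranofin, values that stand for about 1.04, 3.12, 2.08 and 6.22 fragments. These libraries overlap, and a difference was not detectable at this depth. Endothelial markers were present in the same libraries, from Tek, the lowest, at 3.54 to 3.71 FPKM to Cdh5, the highest, between 68.0 and 79.7 FPKM. In the apelin list 2 genes averaged 1 FPKM or more and were tested, Apln and Furin. Furin, which cleaves proapelin, measured 38.6 and 39.5 FPKM with vehicle, against 41.5 and 40.9 FPKM under auranofin, and did not pass the test (log2 fold change 0.08, adjusted p = 0.347 from limma, adjusted over all genes).

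The VEGF ligands differed by small amounts and in different directions in HSCs. Vegfa differed by less than the spread between replicates, at 17.5 and 16.3 FPKM without auranofin and 16.2 and 17.99 FPKM with it (log2 fold change 0.01, SE 0.064), and its groups overlapped. Vegfb, at 32.0 and 33.5 against 33.9 and 35.7 FPKM, differed by 0.08 on the log2 scale (SE 0.045), with the auranofin libraries just above. Pgf, at 3.63 and 4.10 against 4.83 and 4.31 FPKM, differed by 0.20 (SE 0.079). Vegfc, the lymphatic ligand, was 10.9 FPKM in both vehicle libraries and 8.32 and 8.98 FPKM with auranofin, a log2 fold change of -0.31 (SE 0.052) with both auranofin libraries below.

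Vegfd, which is no member but shares the receptor Flt4 with Vegfc, fell. It measured 29.2 and 29.0 FPKM in the 2 vehicle libraries, against 21.1 and 19.4 FPKM in those given auranofin (log2 fold change -0.51, SE 0.0499, adjusted p = 0.0113 from limma, adjusted over all genes). Over the alternatives tried its adjusted p ran from 0.00248 to 0.0608, the highest with no filter on low values. Of the 10 genes in the VEGF list it was the only one, members left aside, to pass in either direction. None of the 5 receptors passed: Flt4 was between 14.5 and 16.3 FPKM in the 4 libraries, Kdr between 12.1 and 14.4, Nrp1 between 36.4 and 39.9, Nrp2 between 51.8 and 53.8, and Flt1 no higher than 1.60.

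Among the angiopoietin genes, Angpt2 measured 23.6 and 21.2 FPKM with vehicle, against 30.2 and 25.6 FPKM under auranofin. Angpt2, which endothelial cells store and release and which can oppose Angpt1 at Tek, was higher in both auranofin libraries by 0.30 on the log2 scale (SE 0.089). Angpt1 was at 0.0737 and 0.160 FPKM with vehicle and 0.0738 and 0.141 with auranofin, and its groups overlapped. Angptl4 measured 13.0 and 10.7 against 10.5 and 9.52 FPKM, a difference of -0.21 (SE 0.096) in which the higher auranofin library was just under the lower vehicle library. Tek lay between 3.54 and 3.71 FPKM and Tie1 between 22.9 and 25.1 FPKM, and neither passed the test.

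Of the 10 genes tested in the angiopoietin list, 1 rose and 1 fell. Angptl2, a secreted relative of Angptl4, rose from 14.2 ± 0.196 to 17.8 ± 0.348 FPKM (SD, n = 2 each), with a log2 fold change of 0.31 and an adjusted p of 0.0269 from limma. Svep1, a large extracellular matrix protein that binds Tie1, fell from 10.8 ± 0.0243 to 8.22 ± 0.564 FPKM (log2 fold change -0.35, adjusted p = 0.0439 from limma). The adjusted p of Angptl2 reached 0.0822 and that of Svep1 0.138 over the alternatives.

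Adrenomedullin, the most abundant member, had overlapping groups in HSCs. Adm measured 37.7 and 36.3 FPKM without auranofin and 38.0 and 32.5 FPKM with it (log2 fold change -0.07, SE 0.074). Its receptor Calcrl was between 8.98 and 10.5 FPKM and the partner Ramp2 between 12.4 and 15.1 FPKM. Ramp1 and Ramp3 were under 1 FPKM in every library. Of the 5 genes tested in the adrenomedullin list, none passed in either direction by limma. None had an unadjusted p under 0.05, a level reached by 17.8% of all HSC genes tested.

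Over the members as a whole, 8 of the 10 averaged 1 FPKM or more in HSCs and were kept by the filter. Of these, 4 had both auranofin libraries above both vehicle libraries (Apln, Vegfb, Pgf and Angpt2), 2 had both below (Vegfc and Angptl4), and 2 overlapped (Vegfa and Adm). Groups did not overlap in 50.1% of all 12149 genes tested, with auranofin above in 26.2% and below in 23.9%. The members' median log2 fold change was 0.05, beside 0.005 over all genes. Apln was the 1 member under an adjusted p of 0.05 in limma, a level reached by 2.33% of all genes, and since that contrast chose the family nothing is read from it.

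**Figure D2:**
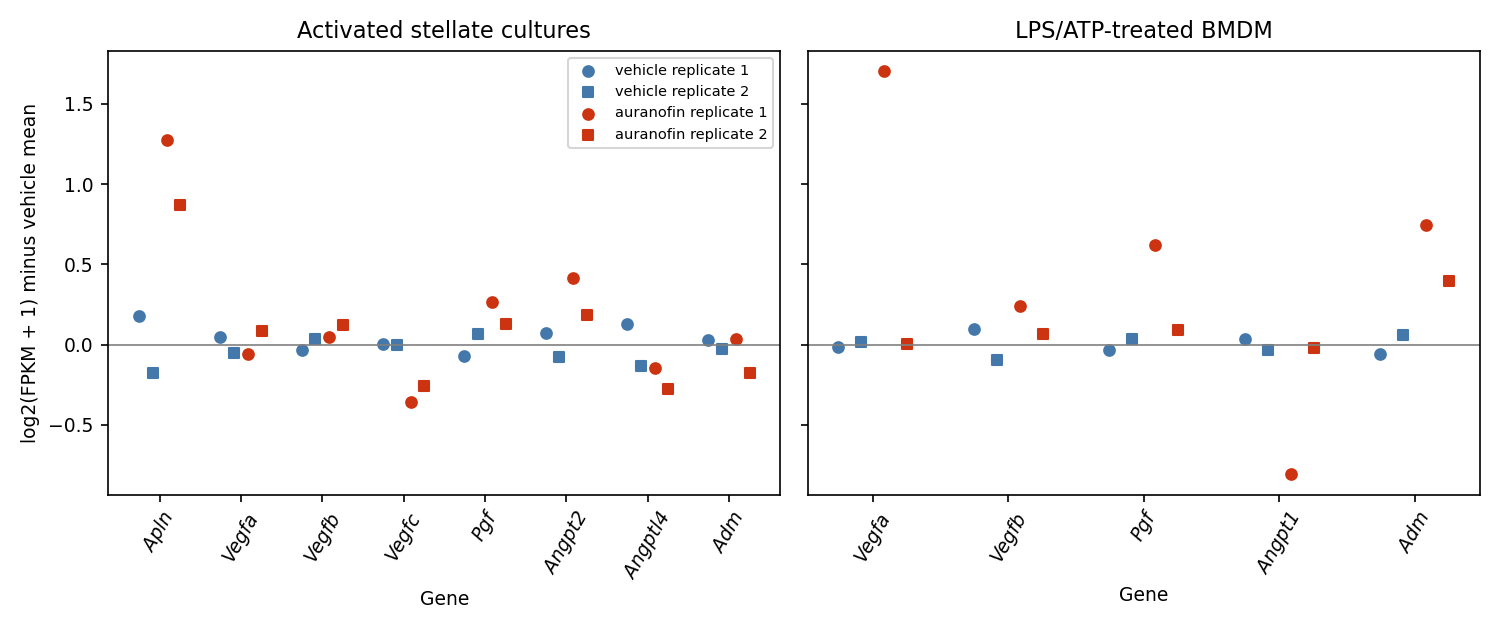
Difference of log2(FPKM + 1) from the vehicle mean in each library, for the members that averaged 1 FPKM or more (8 in HSCs, 5 in BMDM). In HSCs both auranofin points of Apln stand well above the rest, and in BMDM the Vegfa and Angpt1 points of auranofin replicate 1 are far from 0 while those of replicate 2 are near it.

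The profile closest to that of Apln belonged to Esm1. Likeness was taken as the root mean square distance between log2(FPKM + 1) values centred on the vehicle mean, over 4 HSC libraries and 12148 other genes, and it describes these libraries with no test. Esm1 encodes endocan, a proteoglycan secreted by endothelial tip cells, and its distance from Apln was 0.0828. It measured 18.1 and 16.5 FPKM in the 2 vehicle libraries, against 42.8 and 33.0 FPKM in those given auranofin, with the larger value in the same auranofin replicate as for Apln. Its log2 fold change was 1.08 (SE 0.12).

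The next 4 were Prl2c2 at a distance of 0.105, Gsta4 at 0.138, Gbe1 at 0.149 and Prdx1 at 0.154. Gsta4 is a glutathione transferase, Prdx1 a peroxiredoxin and Gbe1 the glycogen branching enzyme. Prl2c2 belongs to a family of near-identical prolactin-like genes, so its reads may be shared with its copies and its value is uncertain. Their log2 fold changes ran from 0.94 to 1.12.

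**Figure D3:**
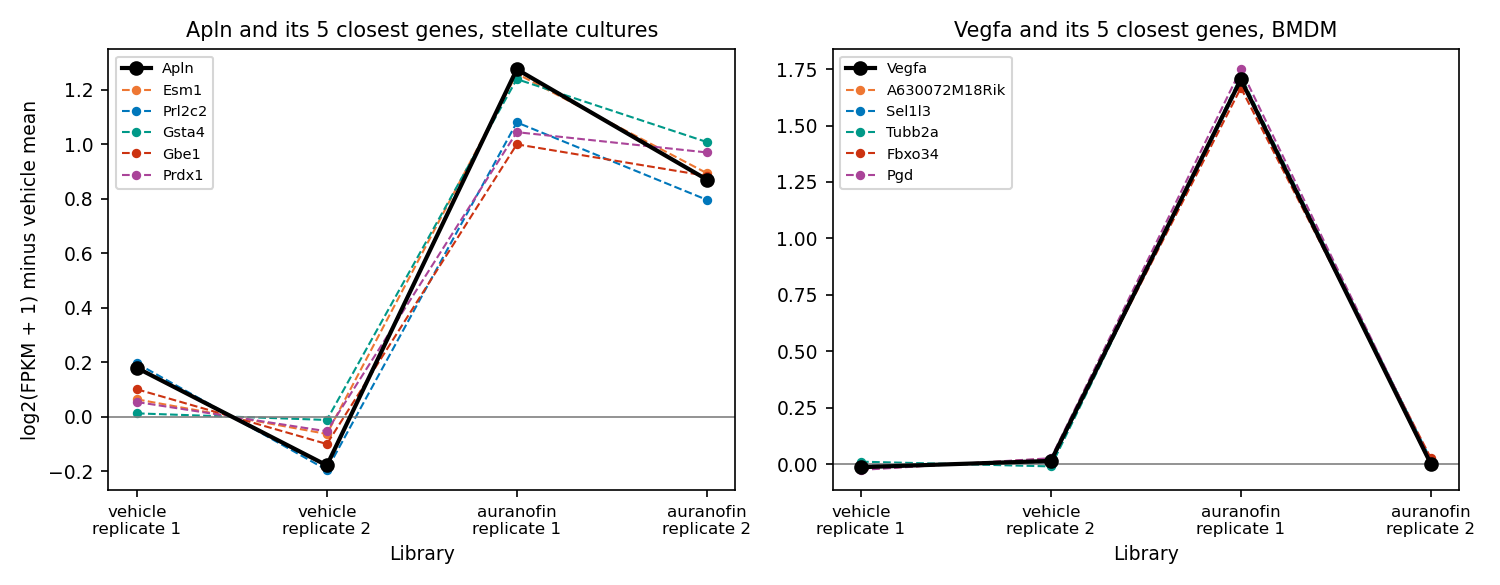
Difference of log2(FPKM + 1) from the vehicle mean in each of the 4 libraries, for Apln and its 5 closest genes in HSCs (left) and Vegfa and its 5 closest genes in BMDM (right). Lines only join the points of a gene. The left-hand genes are high in both auranofin libraries, and those on the right in auranofin replicate 1 alone.

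Esm1 is also in the list of other angiogenic factors, and was the single call among its 13 genes tested (adjusted p = 0.0149 from limma, and 0.0973 with no filter on low values). Like the other lists, this list was written with earlier results of these data known, so the call adds no independent evidence. In that list 7 genes, none of them called, had both auranofin libraries below both vehicle libraries, and 1, Esm1, had both above. The list of angiogenesis inhibitors, also with 13 genes tested, had 7 below and 2 above. Over all genes tested, 23.9% were below and 26.2% above. Among the 13 inhibitors, 3 were called with a fall and none with a rise. Thbs1, or thrombospondin, went from 306.7 and 290.5 FPKM to 197 and 187 FPKM (log2 fold change -0.63, adjusted p = 0.00445 from limma). The chemokine Cxcl10 went from 13.9 and 12.8 to 7.74 and 7.82 FPKM (-0.70, adjusted p = 0.00565), and the metalloprotease Adamts1 from 18.8 and 17.4 to 12.4 and 12.2 FPKM (-0.52, adjusted p = 0.0113). The median of the inhibitor list was -0.08 and that of the other factors -0.14, beside 0.005 over all genes. Over the alternatives, the adjusted p of Adamts1 reached 0.0608. Falls past an adjusted p of 0.05 made up 1.09% of all genes tested, and rises 1.24%.

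Markers of the cells in these cultures were compared in the same fit. Of the 13 endothelial markers, 2 passed, both with a fall. Stab2 went from 20.7 and 21.5 to 15.9 and 16.3 FPKM (log2 fold change -0.37, adjusted p = 0.0169 from limma). Clec4g went from 20.2 and 20.4 to 15.2 and 14.2 FPKM (-0.44, adjusted p = 0.013 from limma). Both are scavenger or lectin receptors of liver sinusoidal endothelium. The other 11 did not pass, and the list's sum was 374.7 and 351 FPKM with vehicle, against 387 and 361 FPKM under auranofin. By the sign of the change, 8 of the 13 were higher with auranofin and 5 lower. Both auranofin libraries lay above both vehicle libraries in 5 and below in 2, beside 26.2% and 23.9% of all genes. Acta2, the actin of activated stellate cells, was the 1 of 12 stellate markers to pass, with a fall of 0.38 on the log2 scale (adjusted p = 0.00719 from limma). Of these 12, 9 were lower with auranofin and 3 higher. Both auranofin libraries lay below in 6 and above in 1, beside 23.9% and 26.2% of all genes. The sum of this list was 4003 and 4079 FPKM with vehicle, against 3516 and 3544 FPKM under auranofin. Of 11 macrophage markers, 4 were higher and 7 lower, and only Clec4f passed, with a rise (0.27, adjusted p = 0.0395 from limma). Over the alternatives the adjusted p of Stab2 reached 0.066, of Clec4g 0.0632, of Acta2 0.0632 and of Clec4f 0.128. Stab2 and Clec4f missed the threshold without auranofin replicate 1. The 5 neutrophil markers summed to 74.3 FPKM in auranofin replicate 2 against 6.24 to 17.6 FPKM in the other HSC libraries. The part of these markers in the values of Apln, Angpt2 and Esm1 was not tested.

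No gene of the HIF list was called in HSCs. Of its 25 genes, none passed an adjusted p of 0.05 by limma in either direction, and the median log2 fold change was 0.03. An unadjusted p under 0.05 was found for 5 of the 25, beside 17.8% of all HSC genes tested. All 10 genes of the NRF2 target list rose, by a median of 0.71, led by Hmox1 at 1.68 (adjusted p = 0.00132). With no filter on low values 4 of the 10 passed, and those lost included Nqo1 (adjusted p = 0.0632 from limma) and Slc7a11 (0.127). Between 7 and 10 passed with 1 library left out, and Slc7a11 missed the threshold without either auranofin library. The NRF2 list was written with these rises known and adds no independent evidence.

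**Figure D4:**
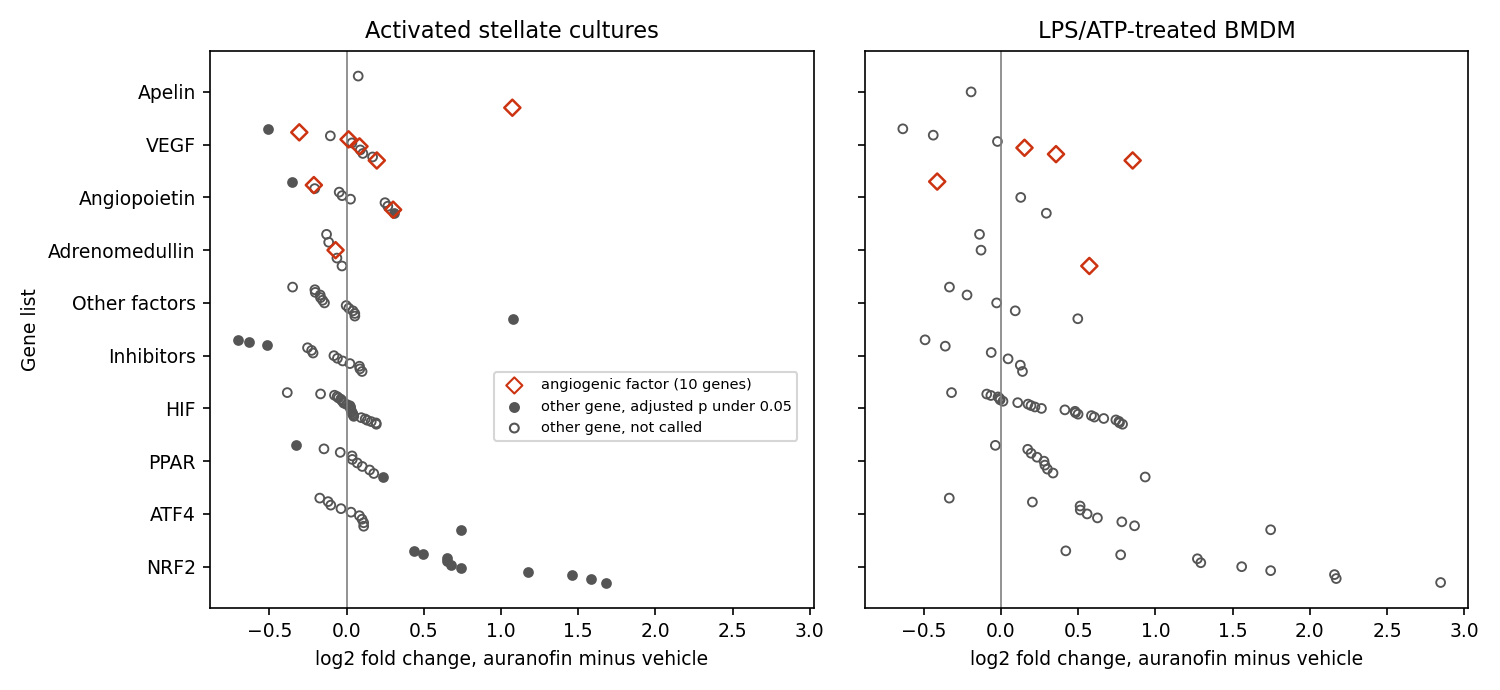
Log2 fold change of the genes tested in 10 gene lists, in HSCs (left) and BMDM (right). Diamonds are the angiogenic factors, shown without a call, filled circles are other genes with an adjusted p under 0.05 in limma and open circles the rest. In HSCs the calls gather in the NRF2 list, and in BMDM no list gene is called.

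In BMDM, 5 of the 10 members averaged 1 FPKM or more, and none of them passed. In limma 0 of these 5 had an adjusted p under 0.05, as against 0.0108% of the 9232 genes tested, which is 1 gene. An unadjusted p under 0.05 was found for 1 member, Adm, and for 0.531% of all genes. With no filter on low values the unadjusted p of Adm was 0.0516, and those of Vegfc and Aplnr, then tested, were 0.0279 and 0.0494. No member passed the second rule, a change of at least 1.5-fold on the log2(FPKM + 1) scale with an unadjusted p under 0.05, which 0.152% of genes passed. Adm fell just short of the fold on that scale (0.57), although the ratio of its mean FPKM values was 1.84. The smallest two-sided p that an exact permutation of 2 against 2 libraries allows is 0.333. The 1 gene called, named after its value was seen, was Gm12070, listed at 0 in both vehicle libraries and at 75.3 and 56.5 FPKM with auranofin.

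Of the 5 members tested, Adm and Pgf had both auranofin libraries above both vehicle libraries, a pattern found in 26.3% of all genes. Adm measured 1.33 and 1.53 FPKM without auranofin and 3.07 and 2.20 FPKM with it, or about 55.1, 58.6, 149 and 106 fragments. The 2 auranofin values were well apart from the vehicle values, and the log2 fold change was 0.57 (SE 0.18, unadjusted p = 0.0327 and adjusted p = 0.721 from limma). Without auranofin replicate 1 the difference was 0.40 and without auranofin replicate 2 it was 0.75. The receptor Calcrl was at 38.5 and 37.7 FPKM in the 2 vehicle libraries, against 33.1 and 36.0 FPKM in those given auranofin, and did not pass. Ramp1, Ramp2 and Ramp3 were all under 0.31 FPKM.

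Vegfa was high in a single BMDM library. It measured 1.89 and 1.94 FPKM with vehicle, 8.50 FPKM in auranofin replicate 1 but only 1.92 FPKM in replicate 2. The groups overlapped, and the log2 fold change of 0.85 (SE 0.61) had an adjusted p of 0.721 in limma. Without auranofin replicate 1 it was 0.0012. The 5 genes with the closest profile among 9231, A630072M18Rik, Sel1l3, Tubb2a, Fbxo34 and Pgd, lay within 0.00743 to 0.0245 of it, and each was likewise high in auranofin replicate 1 alone. Tubb2a encodes a tubulin and Pgd an enzyme of the pentose phosphate pathway.

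Pgf followed the same library to a lesser degree, at 1.13 and 1.24 FPKM with vehicle, against 2.36 and 1.33 FPKM under auranofin (log2 fold change 0.36, SE 0.23, adjusted p = 0.721 from limma, and 0.091 on the log2 scale without auranofin replicate 1). Angpt1 went the other way in it, at 1.44 and 1.32 FPKM with vehicle, 0.361 FPKM in auranofin replicate 1 and 1.35 FPKM in replicate 2 (-0.41, SE 0.31, adjusted p = 0.721, and -0.018 without replicate 1). Vegfb had overlapping groups, with 6.23 and 5.32 FPKM against 6.99 and 6.07 FPKM (0.15, SE 0.14, adjusted p = 0.721, and 0.064 without replicate 1). With auranofin replicate 1 as the only auranofin library, limma put Vegfa, Pgf, Angpt1 and Adm under an adjusted p of 0.05, but it then called 6051 of 9285 genes, or 65.2%. With replicate 2 as the only one, it called 0 of these members and 0.166% of 9025 genes. In both fits the spread came from the 2 vehicle libraries alone, and the lone auranofin library was assumed to vary like them, so these calls compare 1 library with 2 and not the conditions.

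The remaining 5 members averaged under 1 FPKM in BMDM and were left out by the filter. Vegfc was at 0.178 and 0.247 FPKM without auranofin and 0.477 and 0.372 FPKM with it, so that both auranofin libraries were above, at about 13.0, 16.6, 40.8 and 31.4 fragments. Angpt2 was at 0.0700 and 0.168 against 0.471 and 0.185 FPKM, the higher value again in auranofin replicate 1. Angptl4 overlapped, at 0.174 and 0.121 against 0.128 and 0.146 FPKM. Apln was at 0.0320 and 0.0328 FPKM with vehicle, listed at 0 in auranofin replicate 1 and at 0.0155 FPKM in replicate 2, which is at most about 3 fragments. Aplnr was at 0.0471 and 0.0712 FPKM with vehicle, and at 0 and 0.0244 FPKM with auranofin. With no filter on low values, the adjusted p of Adm, Vegfc, Apln, Aplnr and Angpt2 was 0.75 in limma and that of Angptl4 0.874.

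The VEGF receptor Kdr and the co-receptor Nrp2 were lowest in auranofin replicate 1 of BMDM. Kdr measured 12.3 and 12.04 FPKM in the 2 vehicle libraries, against 5.16 and 10.6 FPKM in those given auranofin (log2 fold change -0.64, adjusted p = 0.721 from limma), and Nrp2 203 and 205 against 120 and 187 FPKM (-0.44, adjusted p = 0.721). Without auranofin replicate 1 these differences were -0.18 and -0.12. Nrp1 lay between 27.0 and 28.04 FPKM in all 4 libraries. Flt1, Flt4, Tek and Tie1 had means under 1 FPKM. Of the 6 genes tested in the VEGF list, the 3 in the angiopoietin list, the 3 in the adrenomedullin list, the 1 in the apelin list (Furin), the 5 other factors and the 6 inhibitors, none passed an adjusted p of 0.05 in either direction, and among them only Adm had an unadjusted p under 0.05.

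Most genes of the HIF list were higher in the library in which Vegfa was high. Its 23 genes tested had a median difference from vehicle of 0.50 in auranofin replicate 1 and 0.03 in replicate 2, on the log2 scale, and 0 of them had an adjusted or unadjusted p under 0.05 in limma. Slc2a1, the glucose transporter Glut1, went from 19.6 and 22.2 FPKM to 57.1 FPKM in auranofin replicate 1 but 22.03 FPKM in replicate 2, and Kdm3a, a histone demethylase, from 2.97 FPKM in both vehicle libraries to 12.1 and 2.57 FPKM. In that library 18 of the 23 lay above the vehicle mean and 5 below it, among them Pfkfb3, a regulator of glycolysis, at 107 and 106 FPKM with vehicle, against 68.1 FPKM in replicate 1 and 107 FPKM in replicate 2. These 3 genes were chosen after their values were seen. The NRF2 list behaved likewise, with medians of 3.19 and -0.06 over 9 genes. The median over all 9232 genes tested was 0.18 in replicate 1 and 0.005 in replicate 2. The 5 neutrophil markers, by contrast, summed to 268 FPKM in both auranofin libraries and to 198 and 204 FPKM with vehicle, with S100a8 at an unadjusted p of 0.00737 and an adjusted p of 0.721 in limma. All 4 neutrophil markers tested were higher with auranofin, and none was called. Of these 4, 3 had an unadjusted p under 0.05 in limma, beside 0.531% of all genes. The part of these lists and markers in the values of Vegfa and Adm was not tested.

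**Figure D5:**
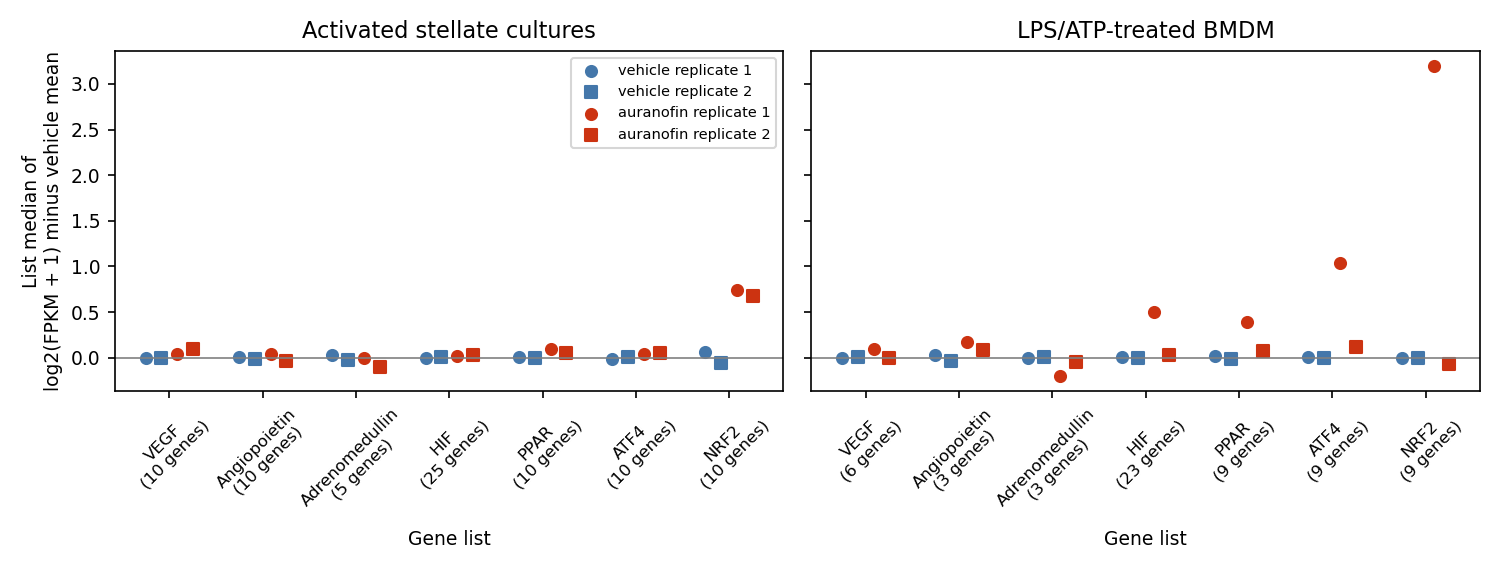
Median over each gene list of the difference of log2(FPKM + 1) from the vehicle mean, by library, in HSCs (left) and BMDM (right), with the number of genes tested. In BMDM the HIF, ATF4 and NRF2 medians of auranofin replicate 1 are 0.50, 1.04 and 3.19, while those of replicate 2 stay within 0.12 of 0.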

How the data were processed

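RNA of activated HSCs and of BMDM was sequenced, with 2 vehicle and 2 auranofin libraries for each. The authors deposited FPKM values per gene, in 2 tables made on mm10 and RefSeq transcripts. Per the labels, CASAVA, FastQC 0.11.7, Trimmomatic 0.38, HISAT2 2.1.0 and StringTie 1.3.4d were named, without settings. FPKM divides the fragments of a gene by its length and by the size of the library, so counts and their error are lost. Depth was estimated from the steps of values under 0.2 FPKM with GENCODE M21 transcript lengths, and covers counting error only. The labels give the BMDM dose as 0.1 µM, and the text on the experiment as 0.3 µM.

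Each table was fitted alone on log2(FPKM + 1) with limma 3.58.1 in R 4.3.3 (lmFit, then eBayes with trend, two-sided), over genes that averaged 1 FPKM or more. Genes were called at a Benjamini-Hochberg adjusted p under 0.05 over all genes tested, and by a second rule at 1.5-fold or more with an unadjusted p under 0.05. In data simulated for the HSC table (12149 genes, 200 of them changed 2-fold), the second rule recovered 200 changed genes (100%) with 20 false calls, and the adjusted p 191. For BMDM (9232 genes) these were 176 (88%), 173 and 0. The changed genes were drawn only from genes well above the filter, and the noise was independent between genes. These recoveries therefore do not cover members near the filter, or a library that stands apart in many genes at once. The replicates of a group were compared and none was a copy of another.

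The members and gene lists (apelin, VEGF, angiopoietin, adrenomedullin, other angiogenic factors, inhibitors, HIF, PPAR, ATF4, NRF2 and cell type markers) were chosen with earlier results of these data known. Named genes were the members, their receptors, list genes past either rule (at most 4 each way per list), and the 5 genes closest to Apln in HSCs and to Vegfa in BMDM. Genes named outside this rule are said to be so, except Furin, Cdh5, Emcn and S100a8, which also lie outside it. Gene positions and upstream windows came from RefSeq on GRCm38.p6. Protein sequences were not used here. Alternatives were a pseudocount of 0.1, no filter, a mean of at least 5 FPKM, centring on the median, quantile normalization, eBayes without a trend, a replicate block, a 2-fold rule and each library left out in turn. Figures were drawn with matplotlib 3.10.9 in Python 3.11.15.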

Additional observations from a re-analysis of the deposited data

Results flagged for a closer look

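Among 39 named genes measured in both tables, 10 moved one way in both HSC auranofin libraries and the other way in both BMDM auranofin libraries. The 39 include genes named because they were called in HSCs, so their separation there was part of the choice. Over all genes tested, groups did not overlap in 50.1% in HSCs and in 38.8% in BMDM. The share with opposite directions was not computed, so nothing is read from the count of 10. The differences between cell types were not tested, and dose, exposure time and treatment with LPS and ATP differ with the cell type and cannot be told apart from it. Each value is the HSC minus the BMDM log2 fold change. It was 1.11 for Apln, whose BMDM values stand for 0 to 3 fragments, and -0.538 for Vegfc, which was under 0.5 FPKM in BMDM. For the ligand Vegfd it was -0.653, with BMDM vehicle libraries listed at 0. The receptors Kdr and Nrp2 gave 0.804 and 0.473, which became 0.345 and 0.154 without BMDM auranofin replicate 1, and the adrenomedullin receptor partner Ramp1 gave -0.367, under 1 FPKM in both cell types. Adamts1 gave -0.834 and Svep1 -0.366, both low in BMDM. Plin2, a lipid droplet protein, gave -0.604 (-0.398 without that library) and Acta2 -0.499. Without it the other 7 kept their sign and moved by less than 1.5 times.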

How the results depend on the processing

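With 2 libraries per group and FPKM in place of counts, small changes in genes under 1 FPKM could not be tested. The members' values were compared over the alternatives that kept every library. A changed filter, eBayes without a trend and the replicate block cannot alter a log2 fold change. Only the pseudocount of 0.1, centring and quantile normalization could move it. All 55 values in HSCs moved from the reported value by less than the SD between replicates on the log2 scale, many of them by construction. This does not establish the direction of a difference as small as that of Vegfa. All 31 values in BMDM had the direction of the reported value, which was likewise fixed for many of them. All were also on the same side of the threshold. The count of HSC genes called (283, of which 53.4% higher) was 49 with no filter on low values (81.6% higher) and 129 without trend (65.9% higher), and ran from 179 to 517 with 1 library left out. By the 1.5-fold rule the HSC count of 70 became 124 with a pseudocount of 0.1 and 17 at 2-fold, and 107 to 139 with 1 library left out. In BMDM the count of 1 became 0 with no filter, 0 with quantile normalization and 2 without trend, and ran from 1 to 6051 with 1 library left out: 15 without auranofin replicate 1, 3 without vehicle replicate 2 and 6051 without auranofin replicate 2. The BMDM count of 14 by the 1.5-fold rule became 27 with a pseudocount of 0.1, 8 with a mean of at least 5 FPKM and 7 at 2-fold, and ran from 14 to 2146 with 1 library left out. Its split of 8 higher and 6 lower became 8 and 10 after quantile normalization or centring, which moved the median of all BMDM genes from 0.09 to 0.0008 and -0.003. The members called in BMDM, 0 by either rule, became 1 (Adm) by the 1.5-fold rule with a pseudocount of 0.1, and ran from 0 to 4 by either rule with 1 library left out, with 4 without auranofin replicate 2. The causes were not tested.

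Deviations of same-numbered libraries from their group means correlated at 0.109 in HSCs and -0.0551 in BMDM, across genes. With 2 libraries per group, and 1 BMDM library standing apart, this cannot tell whether the replicate numbers pair the libraries. With the replicate number as a block, 282 HSC genes were called (75 by the 1.5-fold rule), and in BMDM 1 gene was called (42 by the 1.5-fold rule). With 1 library left out, the other library of that group is assumed to vary like the other group. The HSC differences of 2 members with overlapping groups then changed sign, Vegfa (-0.0586 to 0.0847, negative without vehicle replicate 2 or auranofin replicate 2) and Adm (-0.179 to 0.0369, positive without auranofin replicate 2). So did the log2 fold changes of 4 other genes that did not pass the test: Calcrl in HSCs ran from -0.166 to 0.0410, Ramp2 in HSCs from -0.243 to 0.0121, Nrp1 in BMDM from -0.0473 to 0.0016 and A630072M18Rik in BMDM from -0.0051 to 1.71.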

Other observations

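Other regulators tied to these factors gave few calls in HSCs. The PPAR list held lipid-handling targets, a group to which Angptl4 also belongs, and the PPAR receptor genes themselves. Of its 10 genes tested, Cd36, a fatty acid carrier, rose from 202 ± 6.72 to 238 ± 5.90 FPKM (SD, n = 2 each, log2 fold change 0.24, adjusted p = 0.0464 from limma). Plin2, which coats lipid droplets, fell from 194 ± 6.09 to 155 ± 2.30 FPKM (-0.33, adjusted p = 0.0159). The adjusted p of Cd36 reached 0.138 and that of Plin2 0.0723 over the alternatives. The ATF4 list held Atf4 itself beside its targets. Of its 10 genes tested, Slc7a11, the cystine transporter that is also in the NRF2 list, was the only one to pass, with a log2 fold change of 0.74 (adjusted p = 0.0292 from limma, up to 0.127 over the alternatives). In BMDM none of the 9 genes tested in the PPAR list and the 9 in the ATF4 list passed by limma at an adjusted or unadjusted p under 0.05. Their medians above the vehicle mean were 0.39 and 1.04 on the log2 scale in auranofin replicate 1, and 0.07 and 0.11 in replicate 2.

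The remaining marker lists gave no call in either table by limma at an adjusted p under 0.05. Both cholangiocyte markers tested in HSCs had an unadjusted p under 0.05, as did 17.8% of all HSC genes tested. Their list summed to 12.1 and 11.7 FPKM under vehicle, against 10.2 and 9.64 FPKM under auranofin. Lymphocyte markers summed to less than 0.25 FPKM in every library of both tables. The hepatocyte list had 1 gene tested in HSCs and 2 in BMDM.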
